A study of Mus musculus with 14 samples.

Results

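The genes described are 31 genes of cholesterol and fatty acid synthesis in cells sorted from the mouse hippocampus. They were chosen by name, from Acat2 to Scd2, and were found through their Ensembl identifiers among 43346 genes counted. All 31 were also among the 18676 genes that passed the filter on low counts. Per the labels, the cells were live GFP-positive abGCs, taken here as adult-born granule cells, of C57BL/6 wild-type mice, and each library was made from 800 to 1000 cells with the SMART-Seq v4 kit at day 14. DREADD Pilo (3 libraries) combined a DREADD with pilocarpine seizures, CAG-GFP Pilo (4 libraries) had the seizures with CAG-GFP, DREADD Sham (4 libraries) had the DREADD without seizures, and CAG-GFP Sham (3 libraries) had neither. All 4 groups received CNO, the drug that activates a DREADD, so no group lacked it. A DREADD is a designer receptor, and the library names point to the inhibitory form hM4Di. The labels call the cells of DREADD Pilo silenced, but the counts hold no measure of silencing. Seizures were induced with 300 mg/kg pilocarpine and ended after 3 hours with 10 mg/kg diazepam. The labels give neither the promoter that drove the DREADD, nor the dose of CNO, nor whether libraries came from separate animals, so the p-values below measure the spread between libraries, which may be technical.

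Cholesterol is built from acetyl units through mevalonate, isoprenoid units and squalene to lanosterol, which a chain of enzymes then turns into cholesterol. The transcription factors Srebf2 and Srebf1 switch these genes and the fatty acid genes on when sterol in the membrane is low, under the control of Scap and the Insig proteins. The brain makes its own cholesterol because lipoproteins do not cross the blood-brain barrier. Astrocytes and myelinating oligodendrocytes are its main producers, and neurons take up much of theirs from astrocytes.

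Library totals ran from 10613291 to 38614639 counts. The libraries were split here into set 1 and set 2 by the form of their names in the labels. Set 1 holds the names in capitals that end in PC or SC and a number (CAGPC, CAGSC and DREADSC). Set 2 holds all other names, which are of several forms (CAG_GFP, hm4Digfp and Dreadsc), and Dreadsc differs from DREADSC in letter case alone. Whether the sets are separate batches or sequencing runs is not stated. All 3 CAG-GFP Sham libraries were of set 1, all 3 DREADD Pilo libraries were of set 2, and CAG-GFP Pilo and DREADD Sham had 2 libraries of each. Set 1 had 23965564 to 38614639 counts and 0.117% to 0.2% of them on pseudogenes, and set 2 had 10613291 to 19595245 and 4.33% to 8.12%. A pair of libraries stood apart. CAG-GFP Pilo 4 had counts for 9372 genes, against 14512 or more in each other library, and held no count for 11 of the 31 genes. DREADD Pilo 3 had 185000 CPM on 8 markers of ependyma and choroid plexus. CPM is the count scaled to a common library size, here the library total times its TMM factor (a trimmed-mean correction for composition). The factors were 0.683 to 0.713 in CAG-GFP Sham, 0.716 in DREADD Pilo 3 and 0.982 to 1.39 in the other libraries. This sets the levels of CAG-GFP Sham and of DREADD Pilo 3 higher than totals alone would.

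Markers of granule cells and young neurons were found beside those of other cell types. The 8 markers of mature granule cells summed to 168 to 232 CPM in DREADD Pilo, 442 to 1230 CPM in CAG-GFP Pilo, 194 to 834 CPM in DREADD Sham and 176 to 190 CPM in CAG-GFP Sham. The 8 markers of neuroblasts and immature neurons summed to 25.4 to 608 CPM in DREADD Pilo, 592 to 1440 CPM in CAG-GFP Pilo, 898 to 2090 CPM in DREADD Sham and 323 to 439 CPM in CAG-GFP Sham. CAG-GFP Sham thus had lower sums of these than every CAG-GFP Pilo and DREADD Sham library, while DREADD Pilo spanned its range. The 10 astrocyte markers summed to 1190 to 3260 CPM in DREADD Pilo, 634 to 6020 CPM in CAG-GFP Pilo, 1790 to 4530 CPM in DREADD Sham and 26700 to 28100 CPM in CAG-GFP Sham. The 10 oligodendrocyte markers summed to 392 to 42400 CPM in DREADD Pilo, 1310 to 37900 CPM in CAG-GFP Pilo, 19000 to 40500 CPM in DREADD Sham and 541 to 689 CPM in CAG-GFP Sham. CAG-GFP Sham thus had the highest astrocyte sums of the 4 groups, without overlap. In it 2 of the 8 mature granule cell markers (C1ql2 and Plk5) and 1 of the 8 neuroblast markers (Igfbpl1) were at 0 in every library, while Calb1 had 51 to 67.8 CPM, Rasgrp1 50.8 to 101 CPM and Stmn1 293 to 375 CPM there. Of the oligodendrocyte precursor markers Cspg4 and Neu4 were at 0 in it, and of the endothelial ones Flt1, Cdh5, Tek and Ly6c1, with Itm2a at 10.4 to 52.9 CPM. The mitochondrial share of counts was 2.58% to 25.8% in DREADD Pilo (highest in DREADD Pilo 3), 2.06% to 13.9% in CAG-GFP Pilo (2.06% and 2.25% in its set 1 libraries), 2.21% to 4.9% in DREADD Sham and 11.6% to 12.7% in CAG-GFP Sham. In bulk libraries such as these, fewer cells of a type and less RNA per cell cannot be told apart.

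**Figure D1:**
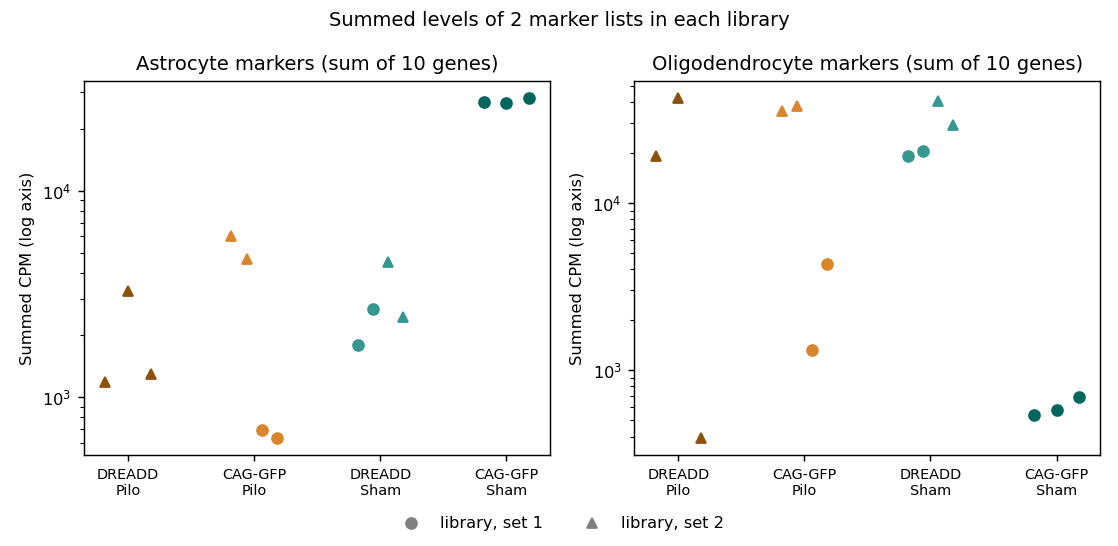
Summed CPM of 10 astrocyte markers (left) and 10 oligodendrocyte markers (right) in each library, on log axes, by group; circles are libraries of set 1 and triangles of set 2. The 3 CAG-GFP Sham libraries lie at 26700 to 28100 CPM for astrocyte markers and at 541 to 689 CPM for oligodendrocyte markers.

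Of the genes, Fdps, Idi1 and Fdft1 have near-identical processed copies, which bears on every value given for them. Fdps (ENSMUSG00000059743.8, chr3:89093588-89101959, minus strand, GRCm38) makes farnesyl diphosphate, the branch point to sterols and protein prenylation. The annotation holds 3 processed pseudogenes of it that were also counted: Gm3571 on chromosome 10 (98.9% identical over the coding sequence), Gm5873 on chromosome 6 (96.7%) and Gm8163 on chromosome X (96.1%). The first 60 coding bases are shown to make the likeness visible, with capitals at bases that differ from Fdps.
Fdps: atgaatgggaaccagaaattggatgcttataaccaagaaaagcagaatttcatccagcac
Gm3571: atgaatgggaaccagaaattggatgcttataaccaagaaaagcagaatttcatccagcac
Gm5873: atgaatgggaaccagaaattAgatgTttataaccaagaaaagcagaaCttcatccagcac
Gm8163: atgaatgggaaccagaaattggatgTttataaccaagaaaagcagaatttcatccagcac
Over these 60 bases Gm3571 differed at 0, Gm5873 at 3 and Gm8163 at 1. Over the whole alignment they differed at 10, 28 and 39 bases. Idi1 (chr13:8885501-8892451, plus strand), which interconverts the isoprenoid units, has the counted copy Gm13502 on chromosome 2. It is identical over 80.2% of the coding sequence, and the stretch below is the same in both.
Idi1: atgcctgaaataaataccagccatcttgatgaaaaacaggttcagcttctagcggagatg
Gm13502: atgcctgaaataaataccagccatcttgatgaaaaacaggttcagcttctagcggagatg
Fdft1 (ENSMUSG00000021273.9, chr14:63145150-63179578, minus strand), squalene synthase, commits farnesyl diphosphate to sterols and has the copy Gm6781, also on chromosome 14 (97.4% identical).

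The counts of these genes and of their copies followed the library set. For Fdps, the copies held 28.5 to 140 CPM in the 7 libraries of set 2 and 0 counts in the 7 of set 1. The Idi1 copy held 25.6 to 118 CPM in set 2 and 0 counts in set 1. The Fdft1 copy held 50.8 to 167 CPM in set 2 and at most 7 counts, or 0.173 CPM, in set 1. Of the sum of gene and copies in set 2, the gene itself held 0.19% to 33% for Fdps, 2.72% to 32.6% for Idi1 and 20.9% to 53.5% for Fdft1. Each of the 3 genes was lower in every set 2 library than in every set 1 library. How the authors placed reads with several matches is not given in the sources used here, and its part in these values was not tested. Sums of a gene and its copies are therefore given in the comparisons below. These sums leave out similar annotated genes that were not among those counted. For Fdps these are Gm43738 (100% identical over 87.5% of the coding sequence), Gm7979 (92.9% identical) and Gm7513 (91.1%). For Idi1 they are Gm35570 (97.7% identical over 80.2% of the coding sequence) and Gm8911 (90.4%).

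**Figure D2:**
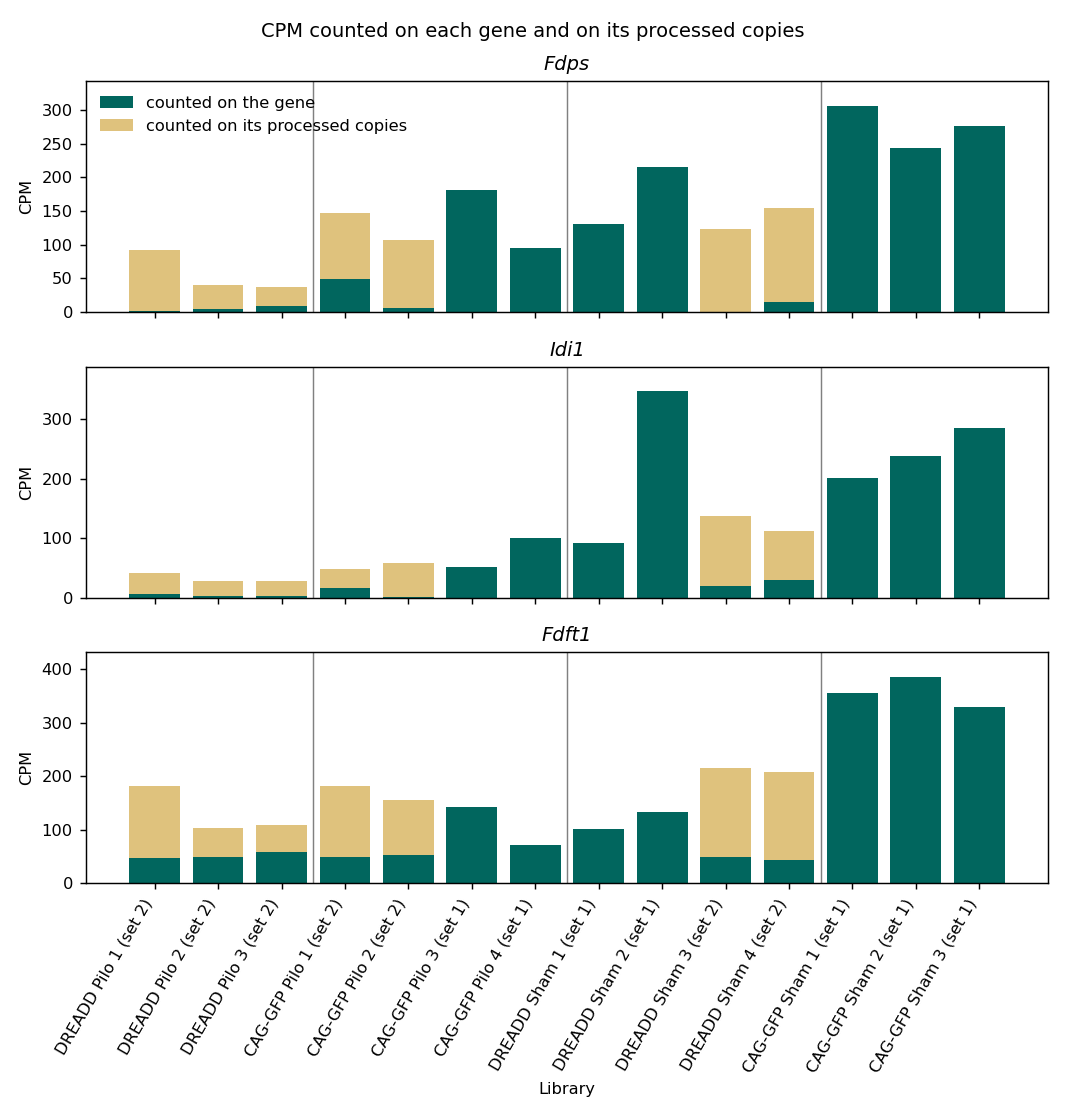
CPM counted on Fdps, Idi1 and Fdft1 (dark) and on their processed copies (light), stacked, in each of the 14 libraries by group. Copies hold 25.6 CPM or more in every set 2 library and 0.173 CPM or less in every set 1 library.

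A similar limit holds for gene pairs. Acat2, which forms acetoacetyl-CoA, shares 98.1% of 99% of its coding sequence with Acat3. Scd1 shares 90.4% with Scd3, and Scd2 shares 95.5% of 58% of its coding sequence with Scd1. The counts of these genes are uncertain as separate genes. Acaca is 99.2% identical over 86.9% of its coding sequence to Gm5182, which was not among the genes counted. The part of Gm5182 in the Acaca counts was not tested.

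Levels can be compared between genes only per length of exon. In CAG-GFP Sham the highest mean levels per kb were those of Scd2 (456 CPM per kb), Msmo1 (197), Pmvk (119), Npc2 (85.2), Fdft1 (84.3) and Hmgcs1 (82.9). In DREADD Pilo the first 4 were Scd2 (183 CPM per kb), Npc2 (116), Hmgcs1 (62.8) and Msmo1 (60.6). In CAG-GFP Pilo they were Scd2 (77.4 CPM per kb), Npc2 (61.4), Msmo1 (50.6) and Hmgcs1 (42.7), and in DREADD Sham Scd2 (96.6 CPM per kb), Hmgcs1 (67.9), Msmo1 (62.7) and Npc2 (42.1). Scd2 thus led in every group, and these orders are descriptions without a test. Among the lowest was Acaca, the carboxylase that makes malonyl-CoA, with 1.03 CPM per kb in DREADD Pilo, 0.605 CPM per kb in CAG-GFP Pilo, 1.22 CPM per kb in DREADD Sham and 1.34 CPM per kb in CAG-GFP Sham.

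**Figure D3:**
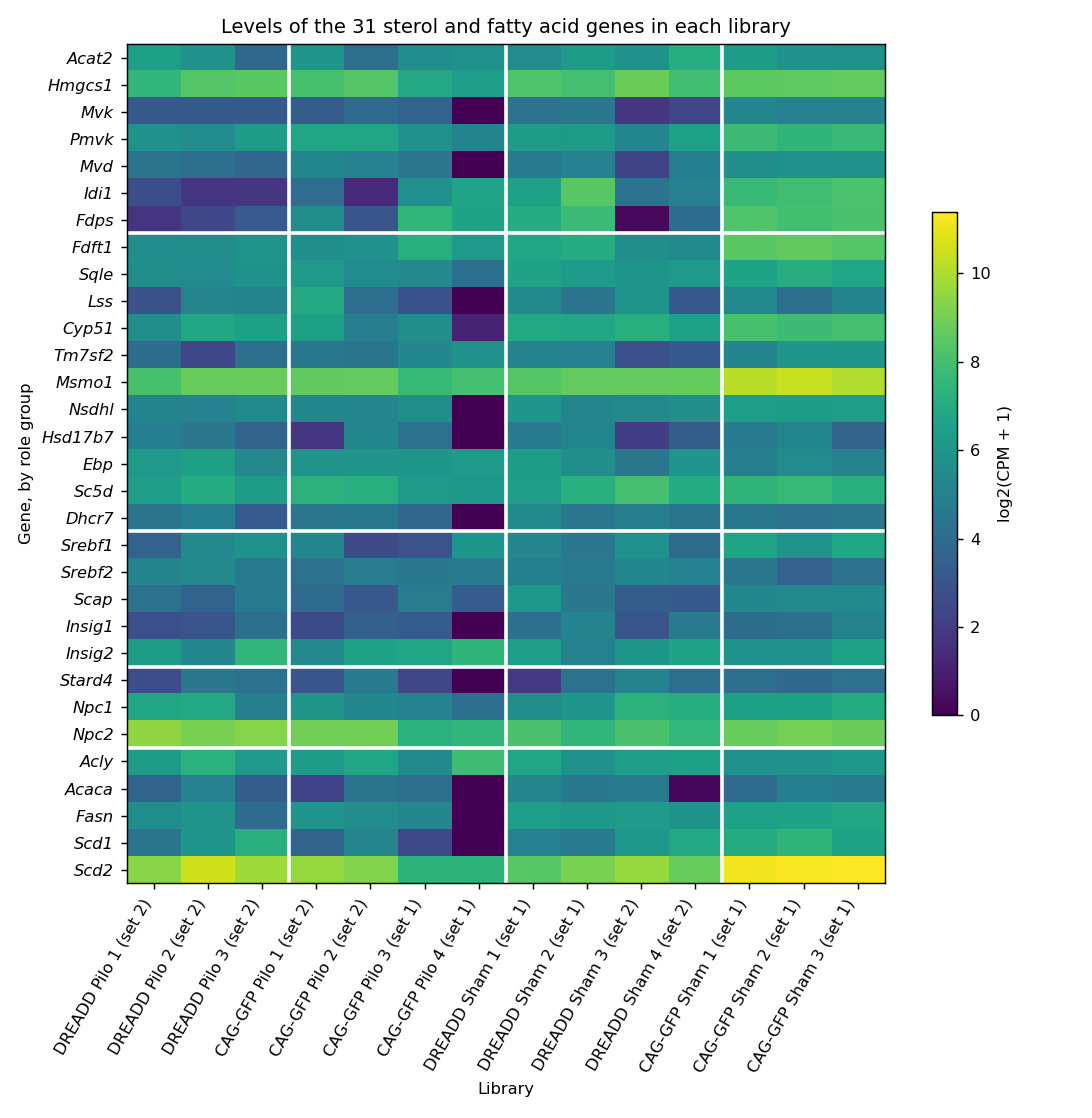
Levels of the 31 genes as log2(CPM + 1), by role group from top to bottom and by library from left to right; white lines part role groups and sample groups. The dark column is CAG-GFP Pilo 4, with 0 counts for 11 genes, and the 3 CAG-GFP Sham columns on the right are brightest for Scd2 and Msmo1.

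CAG-GFP Pilo was compared with CAG-GFP Sham to see what seizures changed in cells without a DREADD. The genes lay mostly lower in CAG-GFP Pilo: the fitted log2 fold change was below 0 for 26 of 31, against 41% of all genes, with a median of -1.37 against 0.41 for all genes. The lowest p-values were those of the sterol demethylase component Msmo1, the desaturase Scd2 and squalene synthase Fdft1. No gene of the 31 passed the test. With edgeR's quasi-likelihood test and Benjamini-Hochberg adjustment over all genes, 45 of all genes (0.241%) passed 0.05, of which 0.0696% of all genes were higher and 0.171% lower. An unadjusted p under 0.05 was found for 9 of the 31, all lower, which is 29% against 5.04% of all genes, and for 0 higher against 10.3%. They were Pmvk, Idi1, Fdft1, Sqle, Cyp51, Msmo1, Npc1, Scd1 and Scd2. With library totals in place of TMM factors 5 were lower (Fdft1, Cyp51, Msmo1, Scd1 and Scd2), against 2.09% of all genes. Higher were then 3, against 17%. DESeq2 called 5 of the 31 lower (Fdft1, Sqle, Cyp51, Msmo1 and Scd2), against 2.67% of all genes, and 0 higher, against 9.22%.

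Msmo1 (ENSMUSG00000031604.6, chr8:64718139-64733792, minus strand) removes methyl groups from lanosterol derivatives. It had 394, 399, 196 and 255 CPM in CAG-GFP Pilo and 1180, 1400 and 1060 CPM in CAG-GFP Sham. Every CAG-GFP Pilo library lay under every CAG-GFP Sham library, and the 2 of set 1 were the lowest. The log2 fold change was -1.96 ± 0.43 (SE; edgeR adjusted p = 0.0898). Scd2 (ENSMUSG00000025203.5, chr19:44293674-44306864, plus strand), the main stearoyl-CoA desaturase of the brain, had 769, 597, 162 and 164 CPM in CAG-GFP Pilo and 2330, 2470 and 2680 CPM in CAG-GFP Sham. The groups did not overlap, and again the set 1 libraries of CAG-GFP Pilo were the lowest. Its log2 fold change was -2.56 ± 0.61 (edgeR adjusted p = 0.121). Scd1, the form that leads in liver and fat, had 11.7, 35, 4.84 and 0 CPM in CAG-GFP Pilo and 133, 172 and 96.7 CPM in CAG-GFP Sham, a log2 difference of -3.38 ± 1.37 (edgeR adjusted p = 0.292).

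Fdft1 had 49.4, 53.2, 143 and 70.7 CPM in CAG-GFP Pilo and 355, 386 and 329 CPM in CAG-GFP Sham, without overlap, and a log2 fold change of -2.17 ± 0.55 (edgeR adjusted p = 0.147). With its copy added, the sums were 70.7 to 182 CPM in CAG-GFP Pilo and 329 to 386 CPM in CAG-GFP Sham, and the log2 fold change was -1.37 ± 0.48 (edgeR adjusted p = 0.284). The summed groups still did not overlap. Idi1 was at -2.51 ± 1.09 as counted and -1.91 ± 0.55 with its copy (edgeR adjusted p = 0.222 with its copy). Its sums were 48.7 to 100 CPM in CAG-GFP Pilo and 202 to 286 CPM in CAG-GFP Sham. Fdps was at -1.72 ± 1.28 as counted (edgeR adjusted p = 0.529) and at -1.05 ± 0.48 with its copies (edgeR adjusted p = 0.322), with sums of 95.9 to 181 CPM in CAG-GFP Pilo and 243 to 306 CPM in CAG-GFP Sham. With copies summed, Fdps joined the genes with an unadjusted p under 0.05, which made 10 of 31.

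By role group, all 7 genes of the mevalonate and isoprenoid steps had a log2 fold change below 0 (median -1.48), as did 9 of 11 genes of the squalene and sterol steps (median -0.72). Of the sterol steps Cyp51, the lanosterol demethylase, stood at -2.58 ± 0.85 and Sqle, squalene epoxidase and a rate-limiting enzyme, at -1.40 ± 0.52 (edgeR adjusted p = 0.277 and 0.285). Ebp, the sterol isomerase, was the exception with libraries that did not overlap and lay higher: 59.3, 60.7, 62.2 and 74.6 CPM in CAG-GFP Pilo and 28.9, 44.7 and 33.3 CPM in CAG-GFP Sham. Among the 3 genes of sterol transport all were below 0, and of the 5 fatty acid genes all but Acly, the citrate lyase that supplies acetyl-CoA. In all, 17 of 31 genes did not overlap and lay lower, which is 54.8% against 12.2% of all genes, and 1 lay higher against 6.55%. The count of 1 was 3 without CAG-GFP Pilo 1, against 8.19% of all genes. It was 2 without CAG-GFP Pilo 3 or CAG-GFP Sham 1, against 8.26% and 7.97%. With library totals in place of TMM factors these were 11 lower, against 6.8% of all genes, and 3 higher, against 12%. The median of the 31 was then -0.75, beside 1.08 for all genes.

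**Figure D4:**
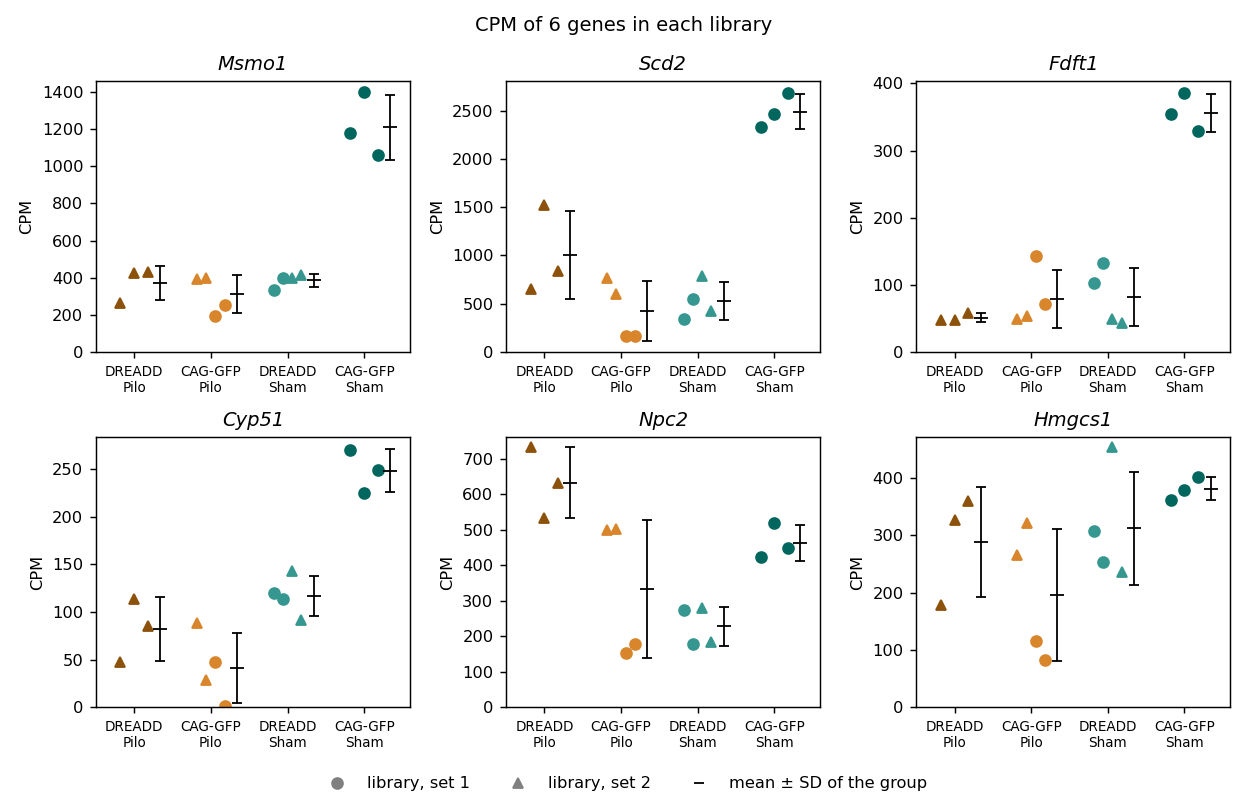
CPM of 6 of the genes in each library; circles are libraries of set 1, triangles of set 2, and the black bar with whiskers is the group mean ± SD. In CAG-GFP Sham, Msmo1, Scd2, Fdft1 and Cyp51 lie above every other library, while Npc2 is highest in DREADD Pilo.

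The remaining genes of the pathway were as follows in CAG-GFP Pilo against CAG-GFP Sham, and none had an unadjusted p under 0.05 save Npc1. Mvk and Mvd, a kinase and the decarboxylase of the mevalonate steps, were at -1.92 and -1.22 on the log2 scale, and Acat2 was at -0.48. Of the later sterol enzymes Nsdhl was at -1.37, Hsd17b7 at -0.72, Sc5d at -0.65, Tm7sf2 at -0.58 and Dhcr7, which makes the last reduction to cholesterol, at -0.56. Lss, which closes the rings of lanosterol, was at 0.20. Npc1, the lysosomal membrane partner of Npc2, was at -1.43, the sterol carrier Stard4 at -0.88, the fatty acid synthase Fasn at -1.46 and Acaca at -1.14. The value for 9 of these (Mvk, Mvd, Lss, Nsdhl, Hsd17b7, Dhcr7, Stard4, Fasn and Acaca) includes a count of 0 in CAG-GFP Pilo 4.

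In a fit of the 7 libraries of set 1 alone, in which these groups have 5, the test called 6 of the 31 genes lower in CAG-GFP Pilo: Hmgcs1, Pmvk, Fdft1, Msmo1, Npc2 and Scd2. That is 19.4%, against 2.15% of the 17260 genes tested there, and 0 were higher, against 0.579%. There Scd2 was at -3.96 ± 0.30 (edgeR adjusted p = 0.000857) and Msmo1 at -2.45 ± 0.29 (edgeR adjusted p = 0.0049). That comparison rests on 2 CAG-GFP Pilo libraries, of which CAG-GFP Pilo 4 is the one with few genes detected. The astrocyte sums of these were 693 and 634 CPM in CAG-GFP Pilo, beside 26800, 26700 and 28100 CPM in CAG-GFP Sham. Their mitochondrial shares were 2.06% and 2.25% in CAG-GFP Pilo and 11.6% to 12.7% in CAG-GFP Sham, and the part of either in the result was not tested. Without CAG-GFP Sham 2 in the main comparison, 5 of the 31 genes had an unadjusted p under 0.05 and were lower, against 3.54% of all genes. Without CAG-GFP Pilo 4 there were 10, against 5.17% of all genes.

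DREADD Sham was compared with CAG-GFP Sham for the effect of the DREADD without seizures. The same CAG-GFP Sham libraries served both comparisons, so the values are given side by side and their likeness is not a result. In DREADD Sham 23 of 31 genes had a log2 fold change below 0, against 38% of all genes. Their median was -0.61, beside 0.53 for all genes, but with library totals alone it was 0.18, beside 1.30 for all genes. No gene of the 31 passed edgeR's test, while 56 of all genes (0.3%) did, 0.0535% higher and 0.246% lower. With an unadjusted p under 0.05, 4 were lower (Pmvk, Fdft1, Msmo1 and Scd2), or 12.9% against 6.59% of all genes, and 0 were higher, against 12%. With library totals alone these were 3 lower (Fdft1, Msmo1 and Scd2), against 3.13% of all genes, and 2 higher, against 19%. DESeq2 called Pmvk, Fdft1, Msmo1 and Scd2 lower, against 3.49% of all genes, and 0 higher, against 10.7%.

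Msmo1 had 335, 396, 397 and 413 CPM in DREADD Sham, against 1180, 1400 and 1060 CPM in CAG-GFP Sham, and a log2 fold change of -1.66 ± 0.43 (edgeR adjusted p = 0.122). Scd2 had 345, 547, 790 and 429 CPM in DREADD Sham, against 2330, 2470 and 2680 CPM in CAG-GFP Sham, and a log2 fold change of -2.24 ± 0.60 (edgeR adjusted p = 0.134). The libraries of the groups did not overlap for either gene, and the spread within DREADD Sham was small beside the gap. Within set 1 both passed the test, making 2 of 31 or 6.45% against 2.44% of all genes, with Scd2 at -2.50 ± 0.28 (edgeR adjusted p = 0.00423) and Msmo1 at -1.75 ± 0.28 (edgeR adjusted p = 0.0152). Pmvk, the kinase of phosphomevalonate, had 75.7, 72.5, 36.3 and 91.9 CPM in DREADD Sham and 226, 174 and 210 CPM in CAG-GFP Sham (log2 fold change -1.56 ± 0.53, edgeR adjusted p = 0.224).

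Fdft1 had 102, 133, 48.6 and 43.3 CPM in DREADD Sham, against 355, 386 and 329 CPM in CAG-GFP Sham, and the lower 2 were of set 2. Its log2 fold change was -2.12 ± 0.55 (edgeR adjusted p = 0.122), and -1.12 ± 0.48 (edgeR adjusted p = 0.252) with its copy added. With their copies added, Fdps was at -0.82 ± 0.48 (edgeR adjusted p = 0.377) and Idi1 at -0.50 ± 0.54 (edgeR adjusted p = 0.71). Of the 31 genes 14 did not overlap and lay lower, or 45.2% against 12.7% of all genes. Srebf2 alone lay higher, against 9.01%, with 2 higher without DREADD Sham 2 or DREADD Sham 3, against 12.1% and 12.8%. With library totals alone 4 lay lower (Pmvk, Fdft1, Msmo1 and Scd2), against 6.99% of all genes, and 4 higher, against 17.3%. The astrocyte sums were also lower, at 1790 to 4530 CPM in DREADD Sham and 26700 to 28100 CPM in CAG-GFP Sham. The oligodendrocyte sums were higher, at 19000 to 40500 CPM in DREADD Sham and 541 to 689 CPM in CAG-GFP Sham. The mitochondrial share was lower, at 2.21% to 4.9% in DREADD Sham and 11.6% to 12.7% in CAG-GFP Sham, without overlap. The part of these in the result was not tested.

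**Figure D5:**
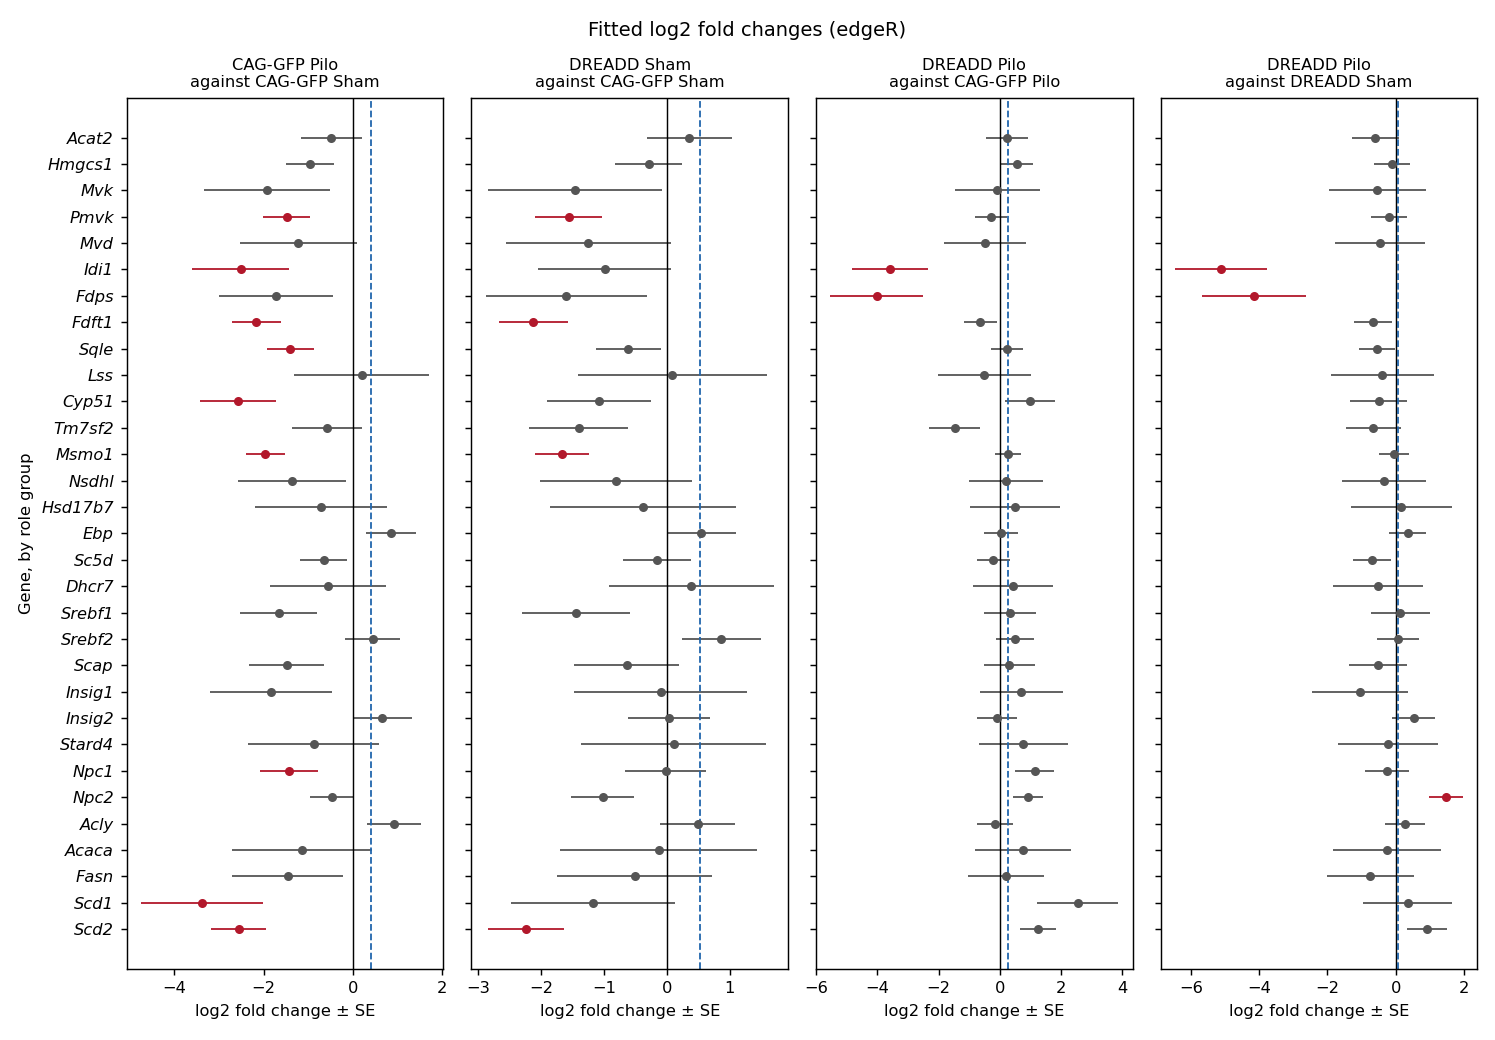
Fitted log2 fold changes with standard errors (edgeR) of the 31 genes in 4 comparisons, the first group named being the numerator; red points have an unadjusted p under 0.05 and the dashed line is the median of all genes. Red points number 9 in CAG-GFP Pilo against CAG-GFP Sham, 4 in DREADD Sham against CAG-GFP Sham, 2 in DREADD Pilo against CAG-GFP Pilo and 3 in DREADD Pilo against DREADD Sham, and none passed the adjusted test.

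DREADD Pilo was compared with CAG-GFP Pilo to see what silencing changed after seizures. Of the 31 genes 11 had a log2 fold change below 0, against 41.6% of all genes, and the median was 0.24, beside 0.28 for all genes. No gene of the 31, and none of all genes, passed edgeR's test (0%). With an unadjusted p under 0.05, 2 were lower, or 6.45% against 3.11% of all genes, and 0 were higher, against 2.25%. These counts turned on single libraries: 3 were higher without CAG-GFP Pilo 1 or without CAG-GFP Pilo 2, 2 without DREADD Pilo 3, and 1 without CAG-GFP Pilo 4 or DREADD Pilo 1, where 1.76% to 2.38% of all genes were higher. Without DREADD Pilo 1 or DREADD Pilo 2, 1 was lower (Idi1), against 2.05% and 1.51% of all genes. DESeq2 called 0 of the 31, against 0.375% of all genes higher and 0.541% lower.

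The 2 were Idi1 and Fdps, the genes with copies. Idi1 had 5.57, 2.47 and 2.45 CPM in DREADD Pilo and 15.9, 1.57, 52.2 and 100 CPM in CAG-GFP Pilo. The groups overlapped, and the 2 high CAG-GFP Pilo libraries were those of set 1. Its log2 fold change was -3.60 ± 1.24 (edgeR adjusted p = 0.882), and -0.98 ± 0.56 (edgeR adjusted p = 0.881) with the copy added. Fdps had 2.34, 4.45 and 8.58 CPM in DREADD Pilo and 48.6, 6.91, 181 and 95.9 CPM in CAG-GFP Pilo, with a log2 fold change of -4.02 ± 1.52 (edgeR adjusted p = 0.882). With the copies added it had 37.1 to 92.6 CPM in DREADD Pilo and 95.9 to 181 CPM in CAG-GFP Pilo, at -1.22 ± 0.50 (edgeR adjusted p = 0.881). The summed groups did not overlap, though the size of the difference was smaller. Within set 2 alone, 0 of the 31 genes had an unadjusted p under 0.05, against 1.41% of all genes lower and 4.21% higher.

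Scd2 had 653, 1520 and 834 CPM in DREADD Pilo, beside 769, 597, 162 and 164 CPM in CAG-GFP Pilo, at 1.24 ± 0.59 on the log2 scale (edgeR adjusted p = 0.882). The groups overlapped through CAG-GFP Pilo 1, and within set 2 the difference was 0.57 ± 0.60 (edgeR adjusted p = 0.963). The 2 genes whose libraries did not overlap were Npc2, which carries cholesterol out of the lysosome, higher in DREADD Pilo against 5.69% of all genes, and Tm7sf2, a sterol reductase, lower against 3.15%. Both counts of 1 are under or near the share of all genes. Without 1 library they ran from 1 to 5 higher and from 1 to 3 lower. There were 5 higher without DREADD Pilo 1, against 9.79% of all genes, and 2 without CAG-GFP Pilo 1, against 9.38%. There were 3 higher without CAG-GFP Pilo 2 or DREADD Pilo 3, against 8.77% and 13.3% of all genes. There were 3 lower without CAG-GFP Pilo 2, CAG-GFP Pilo 4 or DREADD Pilo 3, against 4.74%, 5.69% and 5.89%. With library totals alone Npc2 overlapped too, and 0 lay higher, against 4% of all genes. Lower then were 2 (Fdps and Tm7sf2), against 3.99%.

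DREADD Pilo was compared with DREADD Sham for the effect of seizures in cells with the DREADD. Of the 31 genes 22 had a log2 fold change below 0, against 47.5% of all genes, and the median was -0.34, beside 0.07 for all genes. No gene of the 31, and none of all genes, passed edgeR's test (0%). With an unadjusted p under 0.05, 2 were lower (Idi1 and Fdps), or 6.45% against 1.83% of all genes, and 1 was higher (Npc2), or 3.23% against 3.35%. Without DREADD Pilo 1 Idi1 was the 1 lower, against 1.36% of all genes, and within set 2 there were 0 lower, against 1.25%. DESeq2 called Idi1 alone, lower, against 0.375% of all genes, and 0 higher, against 0.471%.

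Npc2 (ENSMUSG00000021242.8, chr12:84754562-84773152, minus strand) had 733, 533 and 631 CPM in DREADD Pilo and 273, 178, 280 and 185 CPM in DREADD Sham. Every DREADD Pilo library lay above every DREADD Sham library. Its log2 fold change was 1.47 ± 0.50 (edgeR adjusted p = 0.954), and 1.44 ± 0.49 (edgeR adjusted p = 0.636) within set 2. Microglia also carry much Npc2, and the 8 microglial markers summed to 20500, 9190 and 137 CPM in DREADD Pilo, beside 4290, 440, 3710 and 9160 CPM in DREADD Sham. The part of microglia in the Npc2 difference was not tested. The lowest microglial sum was that of DREADD Pilo 3, the library with 185000 CPM of ependymal and choroid plexus markers.

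Idi1 had 5.57, 2.47 and 2.45 CPM in DREADD Pilo and 91.3, 347, 19.1 and 29.9 CPM in DREADD Sham. All DREADD Pilo libraries lay lower, and the 2 highest DREADD Sham libraries were of set 1. The log2 fold change was -5.12 ± 1.34 (edgeR adjusted p = 0.954). With the copy added Idi1 had 28.1 to 41.6 CPM in DREADD Pilo and 91.3 to 347 CPM in DREADD Sham, at -2.39 ± 0.59 (edgeR adjusted p = 0.953), and within set 2 the gene alone was at -2.81 ± 1.25 (edgeR adjusted p = 0.636). Fdps had 2.34, 4.45 and 8.58 CPM in DREADD Pilo and 131, 216, 0.233 and 14.6 CPM in DREADD Sham, at -4.15 ± 1.53 (edgeR adjusted p = 0.954). The groups overlapped, because DREADD Sham 3 had the lowest level of all. With copies added Fdps was at -1.46 ± 0.51 (edgeR adjusted p = 0.953), with 37.1 to 92.6 CPM in DREADD Pilo and 123 to 216 CPM in DREADD Sham. Besides Idi1, Sqle did not overlap and lay lower, making 2 of 31 against 2.23% of all genes, and Npc2 made 1 higher against 4.39%. Without DREADD Pilo 2 there were 5 lower, against 4.22% of all genes. Without DREADD Pilo 3 or DREADD Sham 3 there were 4, against 3.81% and 5.16%, and without DREADD Sham 4 there were 3, against 4.16%. Higher were 3 without DREADD Pilo 1, against 8.19% of all genes, and 2 without DREADD Sham 3, against 7.08%. With library totals alone 4 lay lower (Idi1, Sqle, Nsdhl and Fasn), against 3.71% of all genes, and 1 higher, against 2.7%.

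The interaction asked whether the effect of seizures differed between cells with and without the DREADD. It is the log2 change in DREADD Pilo over DREADD Sham less that in CAG-GFP Pilo over CAG-GFP Sham. No gene of the 31, and none of all genes, passed edgeR's test (0%). With an unadjusted p under 0.05, 3 of the 31 had a positive difference, or 9.68% against 4.33% of all genes, and 0 a negative one, against 7.4%. With library totals alone there was 1 positive, against 1.91% of all genes, and 1 negative (Idi1), against 14%. Without CAG-GFP Pilo 4 there were 6 positive, against 5.06% of all genes, while the median over the 31 genes was 0.47. Without CAG-GFP Pilo 2 there was 1 negative (Idi1), against 5.6% of all genes. DESeq2 called 2 positive, Msmo1 and Scd2, against 1.6% of all genes, and 0 negative, against 6.2%. The difference was below 0 for 10 of the 31, or 32.3% against 57.2% of all genes. The differences were 3.48 ± 0.84 for Scd2 (edgeR adjusted p = 0.227), 1.92 ± 0.60 for Msmo1 (edgeR adjusted p = 0.363) and 1.94 ± 0.71 for Npc2 (edgeR adjusted p = 0.412). Scd2 averaged 1000 ± 456 CPM in DREADD Pilo, 423 ± 308 CPM in CAG-GFP Pilo, 528 ± 194 CPM in DREADD Sham and in CAG-GFP Sham 2490 ± 179 CPM (SD over 3, 4, 4 and 3 libraries). Msmo1 averaged 372 ± 93.5 CPM in DREADD Pilo, 311 ± 102 CPM in CAG-GFP Pilo, 385 ± 34.3 CPM in DREADD Sham and in CAG-GFP Sham 1210 ± 174 CPM (SD over 3, 4, 4 and 3 libraries). For Msmo1 the 3 groups other than CAG-GFP Sham overlapped one another, so CAG-GFP Sham alone stood apart. The median difference over the 31 genes was 0.85, beside -0.43 for all genes, but -0.12 with library totals alone, beside -1.42 for all genes.

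Of the 5 regulators 3 had a log2 fold change below 0 in CAG-GFP Pilo over CAG-GFP Sham, with a median of -1.48. In DREADD Sham over CAG-GFP Sham 3 were below 0, with a median of -0.10. Srebf2, the main activator of the sterol genes, had 32.8, 40.2 and 24.6 CPM in DREADD Pilo, 18.1, 27.1, 23.4 and 24.1 CPM in CAG-GFP Pilo, 29.4, 24.7, 38.3 and 31.9 CPM in DREADD Sham and 22.2, 11 and 17.8 CPM in CAG-GFP Sham. Its mean was lowest in CAG-GFP Sham, where Msmo1 and Scd2 were highest, though CAG-GFP Pilo overlapped it, with a log2 fold change of 0.45 ± 0.62 in CAG-GFP Pilo and 0.87 ± 0.63 in DREADD Sham over CAG-GFP Sham (edgeR adjusted p = 0.783 and 0.505). Srebf1, which favours fatty acid genes, had 11.4, 39.6 and 54.3 CPM in DREADD Pilo, 35.9, 5.34, 6.52 and 62.9 CPM in CAG-GFP Pilo, 38.2, 21.7, 53.4 and 15.1 CPM in DREADD Sham and 99.6, 59.3 and 103 CPM in CAG-GFP Sham. DREADD Sham did not overlap CAG-GFP Sham for Srebf1, while CAG-GFP Pilo did, through CAG-GFP Pilo 4. The Srebf1 log2 fold change over CAG-GFP Sham was -1.66 ± 0.86 in CAG-GFP Pilo (edgeR adjusted p = 0.353). It was -1.45 ± 0.86 in DREADD Sham (edgeR adjusted p = 0.379).

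Scap, which escorts both factors to the Golgi, had 17.9, 11.4 and 25.7 CPM in DREADD Pilo, 14.9, 8.02, 27.3 and 8.97 CPM in CAG-GFP Pilo, 65.9, 22.5, 9.16 and 8.44 CPM in DREADD Sham and 39.3, 42 and 42.4 CPM in CAG-GFP Sham. Insig1, an anchor that holds Scap back, had 5.92, 6.74 and 16.9 CPM in DREADD Pilo, 4.8, 10.4, 9.06 and 0 CPM in CAG-GFP Pilo, 16.7, 34, 6.83 and 23.8 CPM in DREADD Sham and 15.1, 17.2 and 32.9 CPM in CAG-GFP Sham. Insig2, its homologue, had 73.1, 38.2 and 180 CPM in DREADD Pilo, 39.5, 97.9, 104 and 173 CPM in CAG-GFP Pilo, 80.6, 31.5, 63.7 and 93.8 CPM in DREADD Sham and 56, 51.5 and 89.3 CPM in CAG-GFP Sham. Scap and Insig1 were lower in every CAG-GFP Pilo library than in CAG-GFP Sham, while Insig2 overlapped in all 4 comparisons. In CAG-GFP Pilo over CAG-GFP Sham the log2 fold changes were -1.48 ± 0.84 for Scap, -1.84 ± 1.37 for Insig1 and 0.66 ± 0.66 for Insig2. In DREADD Sham over CAG-GFP Sham they were -0.64 ± 0.83, -0.10 ± 1.37 and 0.04 ± 0.65. In each comparison 0 of the 5 regulators had an unadjusted p under 0.05 in edgeR.

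Promoters show what the genes share in sequence. RefSeq promoters on GRCm38.p6 were at hand for 24 of the 31 genes, as 32 windows of 250 bases before a start site. The CCAAT box (letters CCAAT, either strand), which binds the factor NF-Y, was in 65.6% of them, against 33.8% of all 32851 windows. The GC box GGGCGG, a site of Sp1, was in 75% against 32.7%, on either strand. The letters TCACNCCAC, 1 form of the sterol regulatory element that binds the Srebf factors, were in 1 of the 32 windows, that of Hmgcs1. That is 3.1% against 1.1%, and other forms of the element were not searched. Msmo1 is shown as the gene with the lowest p (chr8:64733579-64733828, minus strand). Hmgcs1, the synthase that makes the precursor of mevalonate, is shown as the only holder of these letters among the windows searched (chr13:119690101-119690350, plus strand). Capitals mark CCAAT on either strand and the element.
Msmo1: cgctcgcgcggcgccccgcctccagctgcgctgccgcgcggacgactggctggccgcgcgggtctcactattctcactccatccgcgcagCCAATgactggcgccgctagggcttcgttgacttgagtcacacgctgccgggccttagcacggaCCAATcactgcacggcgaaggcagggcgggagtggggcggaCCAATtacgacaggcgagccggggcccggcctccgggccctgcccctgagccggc
Hmgcs1: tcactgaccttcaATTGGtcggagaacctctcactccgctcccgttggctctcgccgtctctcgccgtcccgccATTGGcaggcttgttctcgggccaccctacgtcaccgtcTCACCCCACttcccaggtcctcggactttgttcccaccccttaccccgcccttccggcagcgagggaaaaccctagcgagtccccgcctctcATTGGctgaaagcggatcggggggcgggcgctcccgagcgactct
Msmo1 held 3 CCAAT boxes and no match to TCACNCCAC, and Hmgcs1 held 3 CCAAT boxes and 1 match. A match is a description of letters and not of binding, and genes without a window were not searched. Hmgcs1 had 179, 327 and 359 CPM in DREADD Pilo, 266, 321, 115 and 82.3 CPM in CAG-GFP Pilo, 307, 253, 453 and 235 CPM in DREADD Sham and 362, 379 and 402 CPM in CAG-GFP Sham. It lay lower in every CAG-GFP Pilo library than in CAG-GFP Sham, at -0.96 ± 0.53 on the log2 scale (edgeR adjusted p = 0.376).

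Beyond the 31, 38 other genes of sterol and fatty acid metabolism were read from the same test, and 0 of them passed in any comparison. In CAG-GFP Pilo against CAG-GFP Sham the 18 other sterol genes had a median log2 fold change of 0.16 and the 20 other fatty acid genes one of -0.80. In DREADD Sham against CAG-GFP Sham these were 0.18 and -0.55. DESeq2 called 1 of the 38 higher and 2 lower in CAG-GFP Pilo, and 3 higher and 0 lower in DREADD Sham, each against CAG-GFP Sham. Of all genes DESeq2 called 9.22% higher and 2.67% lower in CAG-GFP Pilo, and 10.7% higher and 3.49% lower in DREADD Sham. In CAG-GFP Pilo against CAG-GFP Sham the lowest p belonged to Thrsp, a lipogenic protein, with 210, 214, 34 and 27.8 CPM in CAG-GFP Pilo and 1410, 1240 and 1400 CPM in CAG-GFP Sham (log2 fold change -3.48 ± 1.03, edgeR adjusted p = 0.235). In DREADD Sham it was Lipa, the lysosomal lipase that frees cholesterol from esters, with 60, 38.4, 83.2 and 84 CPM in DREADD Sham and 18.4, 15.5 and 14.5 CPM in CAG-GFP Sham (2.04 ± 0.62, edgeR adjusted p = 0.174). Lipa was thus higher, and Thrsp lower, in every library of those groups than in CAG-GFP Sham.

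In DREADD Pilo against CAG-GFP Pilo the lowest p belonged to Hsd17b12, an enzyme of fatty acid elongation, with 226, 237 and 241 CPM in DREADD Pilo and 120, 123, 89.8 and 70.4 CPM in CAG-GFP Pilo (1.22 ± 0.45, edgeR adjusted p = 0.882). In DREADD Pilo against DREADD Sham it was again Thrsp (-2.09 ± 1.05, edgeR adjusted p = 0.967). In the interaction it was Elovl4, which makes very long fatty acids (-2.04 ± 0.92, edgeR adjusted p = 0.415).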

How the data were processed

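Per the labels, polyadenylated RNA of sorted hippocampal cells was made into SMART-Seq v4 libraries. The deposited table holds raw whole-number counts per gene in 14 libraries, without normalisation by the authors. Bowtie2, Subread with featureCounts, edgeR and R 4.1.1 are named per the submitters' processing notes, beside build hg38. The identifiers are mouse Ensembl ones, so that build is not that of the table. Neither the strand setting nor the rule for reads with several matches is known from the sources used here.

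Symbols, positions and exon lengths came from GENCODE M21 on GRCm38, which matched 42462 of 43346 identifiers. The test was that of edgeR 4.0.16, run in R 4.3.3 (TMM, filterByExpr, quasi-likelihood F-test, all 14 libraries in 1 fit by group), with adjustment over 18676 genes and a threshold of 0.05. SE is the log2 fold change over the root of F. DESeq2 1.42.0 was an alternative. Both recovered changed genes when tested on simulated data, which had the same dispersion for every gene and no library sets. That does not show how either performs on libraries with the spread seen here. Similar genes were found with blastn 2.17.0 (at least 90% identity over at least 30% of the coding sequence). Library sets were assigned from the form of the library names in the labels, and not from a stated batch.

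The 31 genes, the other lists and the tests were chosen with earlier results of these data known. CPM per library (in the groups compared) is given for the 3 genes with the lowest p in each comparison of groups, the 2 lowest in the interaction, the regulators, and Scd1 and Scd2; Ebp, Pmvk and Hmgcs1 were added after their values were seen. Of the other pathway genes, the 1 with the lowest p per comparison is named. Same-numbered libraries of different groups were checked for shared deviations from their group means. Of 19 correlations 1 was over 0.1 (range -0.381 to 0.115). This cannot exclude pairing, because same-numbered CAG-GFP Pilo and DREADD Sham libraries were always of opposite library sets. Every pair of libraries within a group differed by more than sampling noise (lowest chi-square per degree of freedom 90.4). Without molecular identifiers, reads cannot be taken as independent molecules.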

Additional observations from a re-analysis of the deposited data

Results flagged for a closer look

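Lss, lanosterol synthase, had 120 CPM in CAG-GFP Pilo 1 and 0 to 16.1 CPM in the other 3 CAG-GFP Pilo libraries, a gap wide enough to set that library apart. It was the 1 such case among 62 sets of 4 libraries checked. Chance gives about 1 in 20 sets, so 1 case among 62 is no more than chance gives.

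Scd2 was picked out because every DREADD Pilo library lay above the mean of DREADD Sham, while every CAG-GFP Pilo library lay under the mean of CAG-GFP Sham. In DREADD Pilo against DREADD Sham the log2 fold change itself was 0.92 ± 0.59 (edgeR adjusted p = 1) and the groups overlapped, with DREADD Pilo 1 at 653 CPM and DREADD Sham 3 at 790 CPM, so no rise was shown there. The interaction was 3.48 ± 0.84 on the log2 scale, with an edgeR adjusted p of 0.227 and a DESeq2 adjusted p of 0.00695, and over the other alternatives the adjusted p ran up to 0.793. With library set as a covariate it was 3.73 ± 0.62 (edgeR adjusted p = 0.0511). All 3 DREADD Pilo libraries are of set 2 and all 3 CAG-GFP Sham libraries of set 1, so no interaction could be fitted within 1 set.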

How the results depend on the processing

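In CAG-GFP Pilo against CAG-GFP Sham, where 0 of the 31 genes passed, 5 passed with DESeq2, 2 with library set as a covariate (Msmo1 and Scd2) and 6 within 1 library set, and leaving out single libraries gave 0 to 1 (1 without DREADD Pilo 3). In DREADD Sham against CAG-GFP Sham, 4 passed with DESeq2, 3 with only those 2 groups in the fit, 2 with library set as a covariate and 2 within 1 set, and leaving out single libraries gave 0 to 1 (again without DREADD Pilo 3). DESeq2 also gave 1 in DREADD Pilo against DREADD Sham and 2 in the interaction. With library totals alone, a scaling chosen after seeing the data, the median log2 fold change was -0.75 in CAG-GFP Pilo against CAG-GFP Sham, 0.18 in DREADD Sham against CAG-GFP Sham and -0.12 in the interaction, where the medians of all genes were 1.08, 1.30 and -1.42. Over all genes the calls ranged far more: in CAG-GFP Pilo against CAG-GFP Sham 45 with edgeR and 2221 with DESeq2, 471 of 17260 within 1 set and 151 without DREADD Pilo 3, and in DREADD Sham against CAG-GFP Sham 56, 2655, 530 and 260, with 647 in the fit of those 2 groups. The cause was not tested. Of 500 alternative values of the 22 named fold changes, 27 passed the threshold that the reported value missed and 0 changed direction. The 22 were picked for their low p in these same data, and the alternatives refit mostly the same libraries. An unchanged direction was therefore likely beforehand and lends them no support.

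With the replicate number as a replicate block, 0 of the 31 genes passed in each comparison and the median log2 fold changes were -1.31, -0.26, 0.25, -0.68 and 0.39, in the order of the report. The count of all genes called was 1 in CAG-GFP Pilo against CAG-GFP Sham, against 45 without the block, and 0 in DREADD Sham against CAG-GFP Sham, against 56. Leaving out single libraries moved the median in CAG-GFP Pilo against CAG-GFP Sham between -1.54 and -0.95, the last without CAG-GFP Pilo 4. The library with the highest total, CAG-GFP Pilo 4, had the fewest genes detected, so total counts do not order the libraries by how many genes they show. No fit within 1 library set or with only 2 groups exists for the interaction.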

Other observations

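Tm7sf2, a sterol reductase, followed the library set without a similar gene in the table: it had 30.9 to 60.5 CPM in the 7 libraries of set 1 and 4.45 to 23.7 CPM in the 7 of set 2. It was the 1 gene of the 31, besides Fdps, Idi1 and Fdft1, whose levels did not overlap between the sets. CAG-GFP Pilo 4, with 0 counts for Fasn, Scd1 and Acaca, had the highest level of Acly, at 227 CPM against 41.4 to 156 CPM in the other libraries.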
